A study of Mus musculus with 2 samples.

Results

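The ADAM genes encode membrane proteins with a disintegrin and a metalloprotease domain. The members described here are 10 ADAM genes of 12393 genes read by the array: Adam2, Adam3 and Adam5, whose proteins sit on the surface of sperm, and Adam8, Adam9, Adam10, Adam12, Adam15, Adam17 and Adam19, which are used widely in other cells. They were read by 19 probe sets, each of which carried a single one of these symbols in the platform annotation. The members were chosen with the signal differences between the UBR2-/- and wild type arrays already known, those of Adam3 and Adam5 among them. They were thus in part selected on the values given below, which stand as a description and support nothing further. The RNA came from testes of 17 day old mice of a mixed 129SV and C57BL strain background. UBR2-/- mice lack Ubr2, a ubiquitin ligase gene of the N-end rule pathway, and were set against wild type mice, with 1 oligonucleotide array (Affymetrix mouse genome 430A 2.0) per genotype. The labels name 2 testes per array, taken from different littermates, and do not give whether their RNA was pooled. A single array per genotype gives no replicate check and allows no test, so each value describes these arrays.

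Many ADAM proteins are active proteases that cut the outer part of other membrane proteins free, a step known as shedding. ADAM10 and ADAM17 are the best known of these sheddases, with Notch receptors, growth factors and cytokines among their substrates. The sperm proteins ADAM2, ADAM3 and ADAM5 lack the zinc-binding motif of an active protease and are known as adhesion proteins made in spermatogenic cells. In the mouse, loss of ADAM2 or ADAM3 leaves males infertile, with sperm that bind the egg coat and migrate into the oviduct poorly.

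The values are linear probe set signals on the authors' scale. The 40th percentile of each array was used as a floor, 24.7 on the UBR2-/- and 24.4 on the wild type array, and lower signals were raised to it before a log2 ratio of UBR2-/- over wild type was taken. A gene's brightest probe set stood for it, and the 8091 genes whose mean signal reached the mean floor were compared. Of the 10 members 9 were compared. The median over all 8091 compared genes was 0.07 on the log2 scale, and the quartiles were -0.17 and 0.28. A single probe set's log2 ratio had an SD of 0.21, estimated from 2894 genes with at least 2 probe sets above the floor on these arrays. It leaves out any error between arrays or animals. Ubr2, the targeted gene, had a signal of 14.3 on the UBR2-/- array and 57.2 on the wild type array, in 1 probe set whose place relative to the deleted part the labels do not give. The 3' to 5' signal ratio of Actb, a measure of RNA quality, was 1.64 on the UBR2-/- and 1.75 on the wild type array, and that of Gapdh was 0.822 on the UBR2-/- and 0.796 on the wild type array.

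All sperm surface ADAMs had much lower signals on the UBR2-/- array, and the widely expressed ADAMs lay close to all genes. Adam2 encodes fertilin beta, which pairs with ADAM1 proteins and is needed for other ADAMs to reach the sperm surface. Its signal was 116.3 on the UBR2-/- array and 883.9 on the wild type array, which is 7.60-fold lower (log2 ratio -2.93) and well above the floor on both. Adam3 encodes cyritestin, the ADAM that many fertility genes of the mouse are needed to bring to the sperm surface. It had 13.7 on the UBR2-/- array, below the floor, against 267 on the wild type array, and was at least 10.8-fold lower (log2 ratio at most -3.43), so that it passed the signal filter only through the wild type array. Adam5, another ADAM gene of sperm, had 28.8 on the UBR2-/- array, just above the floor, against 681.8 on the wild type array, and was 23.7-fold lower (log2 ratio -4.57). On the UBR2-/- array these signals were 13.2%, 5.13% and 4.22% of the wild type signals for Adam2, Adam3 and Adam5, and for Adam3 that share lies below what the array measures well. Each was read by 1 probe set, namely 1460374_at for Adam2, 1448329_at for Adam3 and 1424798_a_at for Adam5. The last carries the suffix of probe sets that can bind several transcripts.

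All 3 sperm surface ADAMs were at least 2-fold lower, where 3.52% of the 8091 compared genes were (285 genes), and 0 were at least 2-fold higher, where 0.346% of all compared genes were (28 genes). Because the members were picked with this contrast known, nothing is read from that count. Of the 7798 compared genes above the floor on both arrays, 0 had a lower log2 ratio than Adam5 and 16 had a lower one than Adam2. Adam3 is 1 of 171 compared genes whose UBR2-/- signal was under the floor, and these have only a bound and no place in this order. The median of the 3 was -3.43, the value of Adam3 and therefore itself a bound. Among themselves the 3 differed, with log2 ratios from -2.93 to -4.57, though the floor limits how far down Adam3 and Adam5 could be read. The plot of all probe set signals shows the wide gaps of the sperm ADAMs beside the shorter ones of most others. A probe set of Adam15, below the floor on both arrays, also has a wide gap, with 10.8 on UBR2-/- against 1.9 on wild type.

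**Figure D1:**
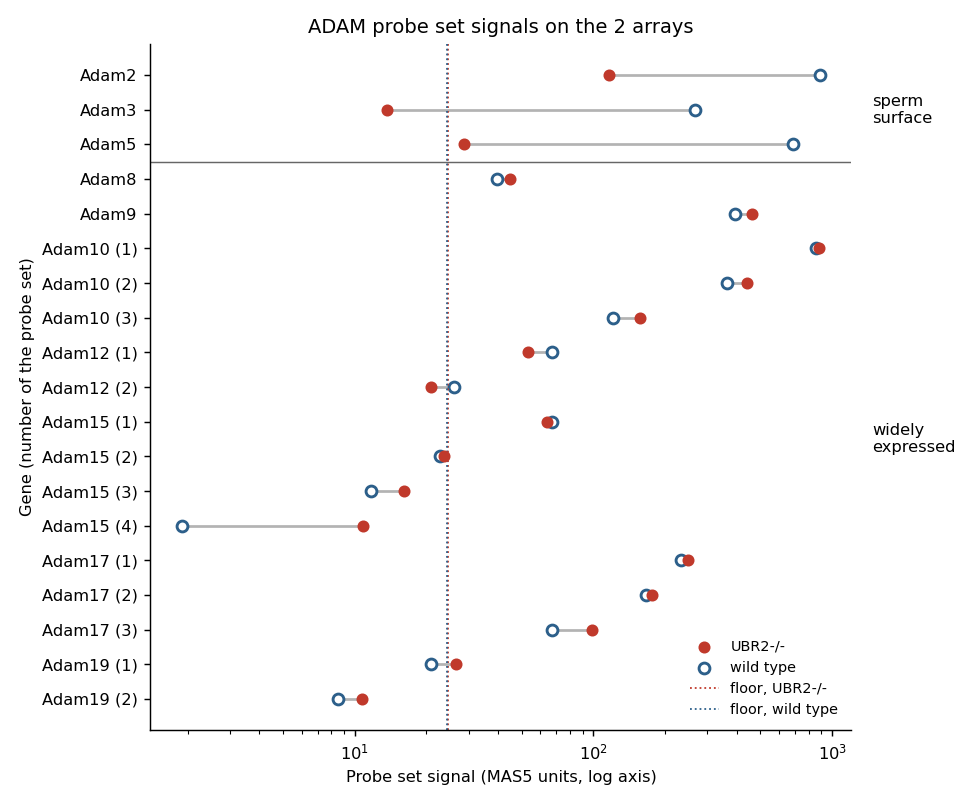
Signals of all 19 probe sets of the 10 ADAM genes on the UBR2-/- (filled) and wild type (open) array, on a log axis in MAS5 units, with the floors of 24.7 and 24.4 as dotted lines. Adam2, Adam3 and Adam5 have UBR2-/- signals of 116.3, 13.7 and 28.8 against wild type signals of 883.9, 267 and 681.8, while both points of most other probe sets nearly coincide.

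The compared ADAMs of the widely expressed group showed no difference of 2-fold in either direction, as was so for 7778 of all 8091 compared genes. Of the 7 genes 6 were compared, and all 6 of these lay within 2-fold of wild type (0 lower, 0 higher), with a median log2 ratio of 0.07, as over all compared genes. The lowest was Adam12 at -0.33 and the highest Adam9 at 0.24, and 3 of the 6 lay above the median of all genes. Between Adam2, the highest of the sperm surface ADAMs, and Adam12, the lowest of the others, lay a gap of 2.60 on the log2 scale, and the medians of both groups differed by at most -3.51, a bound like the value of Adam3 behind it. No test of that difference across samples exists with these arrays.

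Adam10, the main protease that cuts Notch receptors, had 882.8 on the UBR2-/- array and 855.7 on the wild type array in its brightest probe set (log2 ratio 0.05). Its other probe sets had 440.3 on UBR2-/- against 363.2 on wild type (0.28) and 156.5 on UBR2-/- against 120.5 on wild type (0.38). Adam17 encodes the tumour necrosis factor converting enzyme. Its brightest probe set had 248.9 on the UBR2-/- array and 232.2 on the wild type array (0.10), and a second had 175 on UBR2-/- and 166 on wild type (0.08). Its dimmest probe set gave 98.8 on the UBR2-/- array and 67.3 on the wild type array, a log2 ratio of 0.55. The probe sets of Adam10 thus spanned 0.33 and those of Adam17 0.48 on the same pair of arrays, several times the ratio of the brightest probe set of either gene. Adam9 encodes meltrin gamma, a protease found in most tissues. It had 462.7 on the UBR2-/- array and 392.2 on the wild type array (0.24). The SD of a single probe set was 0.21 over all probe sets used for it and 0.15 over the brightest group of them.

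The other widely expressed members were dim. Adam8, best known from leukocytes, had 44.8 on the UBR2-/- array and 39.4 on the wild type array (log2 ratio 0.19). Beside it, 13 compared marker genes of macrophages and leukocytes had a median of -0.18. Of these, 0 were at least 2-fold lower and 0 higher, where 3.52% of all compared genes were lower and 0.346% higher. The summed signal of the 15 markers read was 1095.7 on the UBR2-/- and 1188.3 on the wild type array. None of the 15 was at 0 on both arrays, but 2, Cd14 and Itgam, were below the floor on both. Adam12, meltrin alpha, which is known from muscle and mesenchymal cells, had 53.4 on the UBR2-/- array and 67.1 on the wild type array (-0.33), and a second probe set lay near the floor with 20.8 on UBR2-/- and 26 on wild type. It was the 1 compared member of the widely expressed group below the all-gene quartile of -0.17, whereas the 8 compared markers of peritubular myoid cells, the contractile cells around the tubules, had a median of 0.51. Adam15, which has a part in cell adhesion, had 64.2 on the UBR2-/- array and 66.9 on the wild type array (-0.06) in a probe set that can bind other transcripts. The other 3 probe sets of Adam15 were below the floor on both arrays. Adam19, meltrin beta, was too dim to be compared, with 26.7 on the UBR2-/- array and 20.9 on the wild type array.

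Over the 16 probe sets of the widely expressed members, 10 were above the floor on both arrays. Of these 8 had log2 ratios above 0 and 2 below, from -0.33 to 0.55, with a median of 0.14. They are not separate genes, since Adam10 and Adam17 have 3 probe sets each, all above 0. The share of all probe sets above 0 was not taken, so nothing is read from this count. By gene, 3 of 6 lay above the median of all genes. The signs also depend on scaling. When the arrays were scaled to the spike-in controls, the median of all genes moved to -0.28 and the median of the widely expressed ADAMs to -0.27, a scaling that shifts every gene alike.

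**Figure D2:**
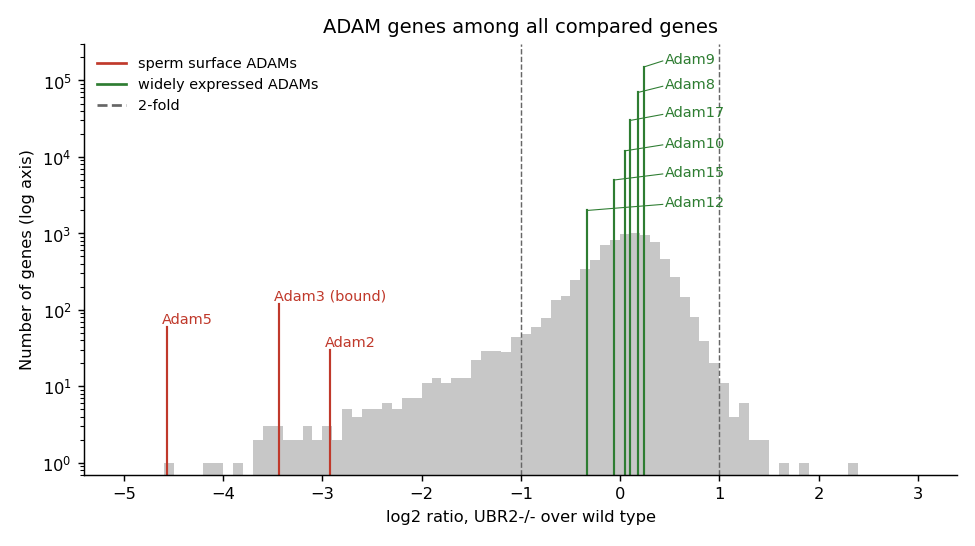
Distribution of the log2 ratio of UBR2-/- over wild type for the 8091 compared genes (bars, gene number on a log axis), with the 9 compared ADAM members marked and 2-fold limits dashed. Adam5 at -4.57, Adam3 at its bound of -3.43 and Adam2 at -2.93 lie in the lower tail, and the other 6 lie between -0.33 and 0.24 around the peak.

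Besides the members, the array read 16 ADAM genes, of which 3 were bright enough to be compared and 13 were not. Adam18 encodes another sperm ADAM without an active protease site. It had 6.3 on the UBR2-/- array, below the floor, against 91.5 on the wild type array and was at least 3.70-fold lower. Adam1b encodes the ADAM1 partner that joins ADAM2 on mouse sperm. It had 10.9 on the UBR2-/- array against 49.5 on the wild type array, at least 2.00-fold lower and so right at the 2-fold limit, and its other probe set was below the floor on both arrays. The mean over both probe sets gave it a log2 ratio of -0.49, under 2-fold. Adam18 and Adam1b passed the signal filter only through the wild type array, so they could pass only by differing. Adam4, a gene known from testis, had 27.6 on the UBR2-/- array and 25.8 on the wild type array (log2 ratio 0.10). The 13 others, namely Adam1a, Adam7, Adam11, Adam21, Adam22, Adam23, Adam24, Adam25, Adam26a, Adam28, Adam33, Adam34 and Adamdec1, had signals between 0.2 and 24.8, and 12 of them were below the floor on both arrays. Taking members and others together, 5 of 12 compared ADAM genes were at least 2-fold lower and 0 at least 2-fold higher. Over all compared genes the shares were 3.52% lower and 0.346% higher, and the count of ADAM genes rests on the members' choice.

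Adam18, Adam3, Adam5, Adam32 and Adam9 follow each other in this order on chromosome 8 in the GRCm38.p6 gene table, which served for names and gene order only. Adam32 is not analysed here. The genes of this row differed sharply from each other, with 6.3, 13.7 and 28.8 on the UBR2-/- array against 91.5, 267 and 681.8 on the wild type array for Adam18, Adam3 and Adam5, while Adam9 had 462.7 on UBR2-/- against 392.2 on wild type. Tm2d2, the next gene beyond Adam9, had 444 on the UBR2-/- array and 379.4 on the wild type array (log2 ratio 0.23). Ido1 and Ido2, enzymes of tryptophan breakdown that lie on the other side of Adam18, were below the floor on both arrays, as was Plekha2. Adam2 lies apart on chromosome 14. Its neighbour Clu, which encodes clusterin, a protein made in bulk by Sertoli cells, had 7075.9 on the UBR2-/- array and 5186.1 on the wild type array (0.45). Scara3 had 193.4 on the UBR2-/- array and 108.4 on the wild type array (0.84), and Ptk2b had 32.4 on UBR2-/- and 26.7 on wild type (0.28). Gulo and Chrna2 were below the floor on both arrays, and Ephx2 was too dim to be compared. Within 3 protein-coding genes of Adam2, Adam3, Adam5 or Adam9, the other compared genes were Adam18, Tm2d2, Clu, Scara3 and Ptk2b. Of these only Adam18 was at least 2-fold lower (at least 3.70-fold), where 3.52% of all compared genes were. It passed the signal filter only through the wild type array. With so few genes nothing about location is read from this.

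**Figure D3:**
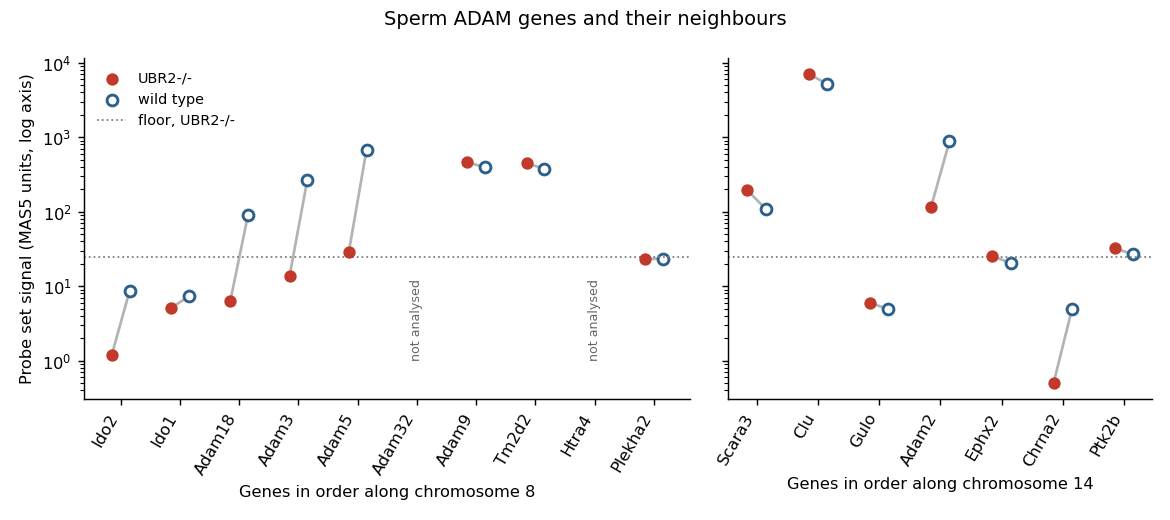
Signals on the UBR2-/- (filled) and wild type (open) array, in MAS5 units on a log axis, for genes in their order along chromosome 8 (left) and chromosome 14 (right). Adam18, Adam3, Adam5 and Adam2 have UBR2-/- signals of 6.3, 13.7, 28.8 and 116.3 against wild type signals of 91.5, 267, 681.8 and 883.9, while Adam9 has 462.7 on UBR2-/- against 392.2 on wild type.

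Sperm ADAMs pass through the endoplasmic reticulum with the help of chaperones and other proteins, and several mouse genes are known to be needed for ADAM3 to appear on sperm. Of 15 such genes 7 were read and 5 compared, with a median log2 ratio of 0.03. Of the 5, 2 were at least 2-fold lower, 0 higher and 3 between, where 3.52% of all compared genes were lower and 0.346% higher. Cmtm2a, needed together with Cmtm2b for ADAM3 on mouse sperm, had 14.9 on the UBR2-/- array against 235.7 on the wild type array and was at least 9.54-fold lower. It passed the filter only through the wild type array. Clgn encodes calmegin, the germ cell chaperone that assembles ADAM1 with ADAM2. It had 208.9 on the UBR2-/- array and 565 on the wild type array in its brightest probe set, 2.70-fold lower. The other probe set had 122.8 on UBR2-/- and 512.8 on wild type, 4.18-fold lower. All probe sets of Cmtm2a and Clgn carry suffixes of probe sets that can bind several transcripts, and without such probe sets 3 genes of the list were compared and 0 were at least 2-fold lower. The other 3 lay near all genes. Tex101, a surface protein of germ cells, had 2670.1 on the UBR2-/- array and 2621.8 on the wild type array (log2 ratio 0.03). The sulfotransferase gene Tpst2 had 93.7 on the UBR2-/- array and 84.2 on the wild type array (0.15), and the angiotensin-converting enzyme gene Ace had 61.1 on UBR2-/- and 48.8 on wild type (0.32), and the labels do not give which of its isoforms was read. Adam1a and Prss37 were too dim to be compared.

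The general counterparts of these genes, such as the chaperones of all cells, lay close to all genes. Of 10 read and compared, 0 were at least 2-fold lower, 0 higher and 10 between, where 3.52% of all compared genes were lower and 0.346% higher. The median of the 10 was 0.04. Canx, the calnexin that resembles calmegin, had 1191.5 on the UBR2-/- array and 1201 on the wild type array (log2 ratio -0.01), against -1.44 for the brightest probe set of Clgn. The members farthest from 0 were Calr (0.41), Ganab (0.35) and Hspa5 (0.34), with Hsp90b1 the lowest at -0.19. With quantile normalization Calr was at 0.22, Hspa5 at 0.07 and Hsp90b1 at -0.32, while Ganab stayed at 0.34. Tpst1, the relative of Tpst2, had 0.06.

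Most compared genes of a list for gamete binding and fusion were at least 2-fold lower. Whether each listed gene has a part in these steps was not checked. Of 32 listed, 15 were read and 8 compared, with a median of -1.45 against 0.07 over all compared genes. Of the 8, 7 were at least 2-fold lower, 0 higher and 1 between, where 3.52% of all compared genes were lower. The list was chosen with earlier results of these data known, so nothing further is read from that count. Crisp2, a protein of the acrosome and tail, had 91.1 on the UBR2-/- array and 1357.6 on the wild type array, 14.9-fold lower. The acrosin gene Acr had 20.5 on UBR2-/- against 123.8 on wild type (at least 5.01-fold lower). The acrosin-binding protein gene Acrbp had 19.1 on UBR2-/- against 93.8 on wild type (at least 3.80-fold lower). Zpbp, a zona-binding protein of the acrosome, had 67.9 on UBR2-/- against 215.4 on wild type (3.17-fold lower). Spa17, Spag1 and Spesp1 were 2.34-fold, 2.23-fold and 2.06-fold lower. The member between was Mfge8, a secreted adhesion protein also made by somatic cells, at 0.28. Acr and Acrbp passed the filter only through the wild type array, which leaves 6 genes above the floor on both, 5 of them at least 2-fold lower. With the floor at the 60th percentile 5 genes were compared and 4 were lower.

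The compared regulators of ADAM10 and ADAM17 lay within 2-fold, as did 7778 of all 8091 compared genes. Of 22 listed, 20 were read and 16 compared, with 0 at least 2-fold lower, 0 higher, 16 between and a median of 0.08. The inhibitor gene Timp2 had 1191.1 on the UBR2-/- array against 930.8 on the wild type array (log2 ratio 0.36), and Timp3 had 261 on UBR2-/- against 195.8 on wild type (0.41). The tetraspanins Tspan5 and Tspan17, which guide ADAM10, had 0.48 and 0.37. Furin, a convertase that removes the prodomain of ADAMs, had 83.5 on the UBR2-/- array and 83.1 on the wild type array (0.01), and Pcsk7, another convertase, had the largest difference of the list with 115.2 on UBR2-/- against 172.4 on wild type (-0.58). Rhbdf1, an iRhom that carries ADAM17 to the cell surface, had 0.30.

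Of 53 listed substrates of shedding ADAMs, 50 were read and 30 compared. Of the 30, 0 were at least 2-fold lower, 1 higher and 29 between, where 3.52% of all compared genes were lower and 0.346% higher. The median of the substrates was 0.30, and 22 of the 30 exceeded the median over all genes. The member at least 2-fold higher was Sdc4, the cell surface proteoglycan syndecan 4, with 738.8 on the UBR2-/- array and 363.7 on the wild type array (2.03-fold, log2 ratio 1.02). Its other probe set had 230.1 on UBR2-/- against 161.6 on wild type and a log2 ratio of 0.51, under 2-fold. The call for Sdc4 was lost with loess (0.98), with spike-in scaling (0.68) and with the mean over probe sets (0.77). Notch1 had 201.7 on the UBR2-/- array against 132.1 on the wild type array (0.61), Notch2 412.3 on UBR2-/- against 295.1 on wild type (0.48) and Notch3 47.3 on UBR2-/- against 34.6 on wild type (0.45). Ptprk, a receptor phosphatase, had 0.72, the fractalkine gene Cx3cl1 0.53 and the adhesion gene Cdh1 0.53. Cdh2, the cadherin of germ and Sertoli cells, lay at -0.36. Jag1, a Notch ligand, had 22.3 on the UBR2-/- array, below the floor, against 30.8 on the wild type array, so that its log2 ratio of at most -0.32 is a bound.

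**Figure D4:**
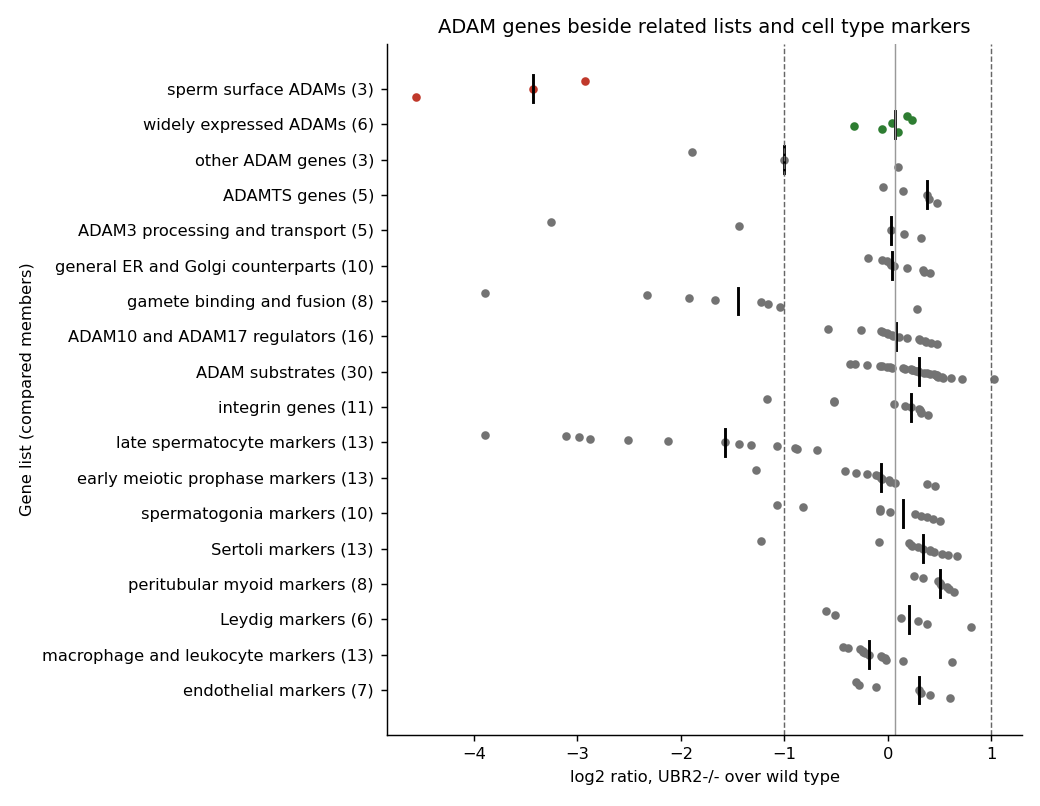
Log2 ratio of UBR2-/- over wild type for each compared gene (points) of the ADAM groups, related lists and cell type markers, with list medians as black bars, the median of all genes as a grey line and 2-fold limits dashed. The sperm surface ADAMs (median -3.43), gamete binding genes (-1.45) and late spermatocyte markers (-1.58) lie to the left, and the widely expressed ADAMs (0.07) near 0.

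Most markers of the germ cells in which sperm ADAMs are made were at least 2-fold lower. Of 16 late spermatocyte markers 14 were read and 13 compared, with a median of -1.58. Of the 13, 10 were at least 2-fold lower, 0 higher and 3 between, where 3.52% of all compared genes were lower. The markers were chosen with earlier results of these data known, so nothing further is read from that count. Insl6, Pgk2 and Ccna1 had 22.1, 4.1 and 9.3 on the UBR2-/- array, below the floor, against 140.5, 107.4 and 52 on the wild type array. They passed the filter only through the wild type array, and of the 10 markers above the floor on both arrays 7 were at least 2-fold lower. With the floor at the 60th percentile 6 of 9 compared markers were lower. The summed signal was 2423.5 on the UBR2-/- array and 9862.9 on the wild type array. Of the 14, 0 were at 0 on both, but 1, Acrv1, was below the floor on both. Crisp2 and Clgn also stand in the lists above. Of the 10 markers above the floor on both arrays, 0 had a lower log2 ratio than Adam5 and 3 had a lower one than Adam2, namely Crisp2 at -3.90, Ldhc at -3.11 and Spag6l at -2.98. Piwil1, Ybx2, Clgn and Nme5 lay at -2.88, -1.58, -1.44 and -1.32. Hspa2, Mybl1 and Tbpl1 were the 3 markers between, at -0.90, -0.88 and -0.68. Early meiotic prophase markers had a median of -0.06 over 13 genes, with Spo11 (-1.27, in a probe set that can bind several transcripts) at least 2-fold lower, and a summed signal of 11350.3 on the UBR2-/- array and 11797.3 on the wild type array. In whole testis RNA, fewer late spermatocytes and less RNA per cell cannot be told apart, and the part of cell numbers in the ADAM values was not tested.

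Most markers of somatic cells, apart from the leukocyte genes given above, lay above the median of all genes. The Sertoli markers had a median of 0.34 over 13 genes and a summed signal of 12713.1 on the UBR2-/- array against 9917.2 on the wild type array. Clu alone gave 7075.9 and 5186.1 of these sums. Its log2 ratio of 0.45 was 0.0 with quantile normalization and 0.19 with loess. The endothelial markers had a median of 0.30 over 7 genes and the Leydig markers 0.21 over 6. Of these, 3 endothelial and 2 Leydig genes lay below the median of all genes, with Cyp11a1 the lowest Leydig marker at -0.59. With the floor at the 25th percentile the endothelial median was 0.09, against 0.08 over all genes. The spermatogonia markers had 0.14 over 10 genes. In all 4 of these lists at most 1 gene was 2-fold off, where 3.52% of all compared genes were lower and 0.346% higher. These were Amh (-1.23) among Sertoli and Id4 (-1.07) among spermatogonia markers. Amh was under 2-fold with a pseudocount in place of the floor (-0.97). Id4 was under 2-fold with the mean over probe sets (-0.84), and its other probe sets had -0.81 and -0.65. Of the Sertoli markers 12 of 13 were above the floor on both arrays, Clu among them, and Sycp1 and Sycp3 of meiotic germ cells had 2342.1 and 2954.7 on the UBR2-/- array against 2533.4 and 2904.1 on the wild type array. Other markers were dim, with Gfra1 and Acrv1 below the floor on both arrays and Gdnf below it on the wild type array.

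The compared genes whose log2 ratio was nearest to that of each sperm ADAM were sought over the 2 arrays, with the absolute difference in log2 ratio as the measure of likeness. Nearest to Adam2, of the genes that both arrays read above their floors, were the PIWI gene Piwil1 (-2.88) and Spag6l, a gene of the sperm axoneme (-2.98). The measure also named 1700018F24Rik, but its value of at most -2.88 is a bound, with 4.6 on the UBR2-/- array against 182.2 on the wild type array, and a floor at the 25th percentile gave -4.42. Adam3 has only a bound, and the genes next to that bound were Clec2m (-3.42), the testis chaperonin subunit gene Cct6b (-3.49) and the sperm calcium channel gene Catsperz (at most -3.38, a bound), so their likeness to Adam3 rests on the floor. The genes named for Adam5 lay farther off, with the gluconeogenesis gene Fbp1 at -4.18 and Crisp2 at -3.90. 1700074P13Rik, with 15.8 on the UBR2-/- array against 416.5 on the wild type array, had a bound of at most -4.08, which was -4.72 with the lower floor and then below Adam5. Of these 9 genes, 0 lie on chromosome 8 or 14. The share of all compared genes on these chromosomes was not taken, so nothing about location is read from that.

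The split between both groups of ADAMs held over the processing settings. The log2 ratio of Adam2 ranged from -3.27 to -2.82 over 10 alternatives and the reported setting. That of Adam3 ranged from -4.28 with a lower floor to -1.58 with a higher one, and that of Adam5 from -4.91 to -2.93 over 9 alternatives, since its only probe set was left out in the remaining one. Every widely expressed ADAM stayed within 2-fold under each of the 10 alternatives that gave it a value, with -0.68 (Adam12) and 0.35 (Adam19) as the extremes.

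**Figure D5:**
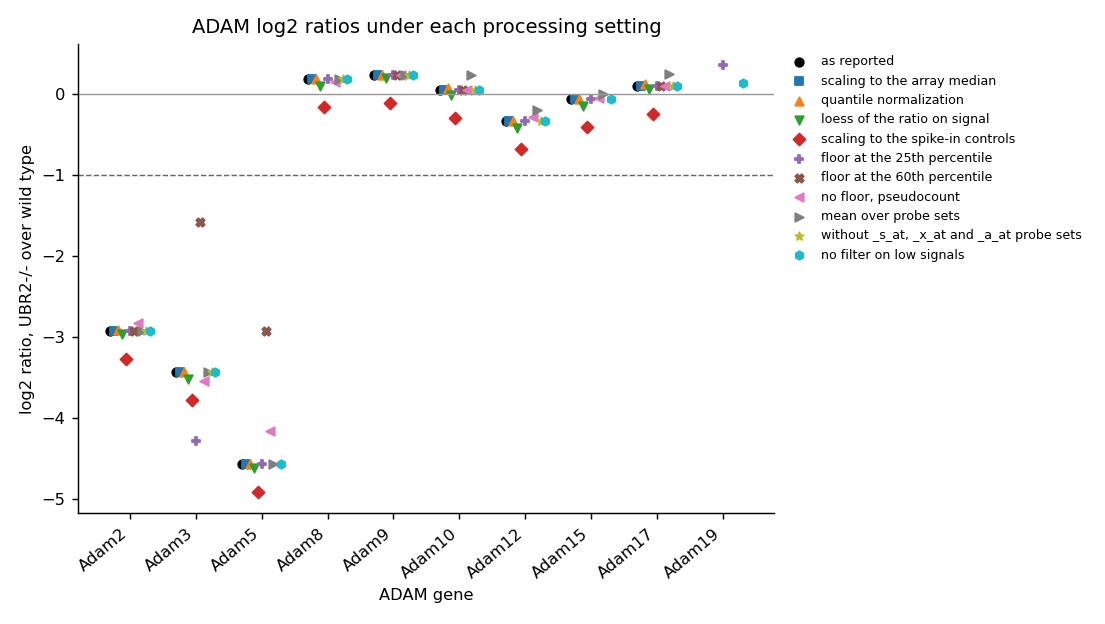
Log2 ratio of UBR2-/- over wild type for the 10 ADAM genes under the reported and 10 alternative processing settings (symbols), with 0 and 2-fold lower marked by lines. Adam2, Adam3 and Adam5 stay below -1 wherever they have a value, the floor at the 60th percentile brings Adam3 to -1.58 and Adam5 to -2.93, and the others stay between -0.68 and 0.35.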

How the data were processed

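Per the labels, total RNA of testes was extracted and biotin-labelled for 1 array per genotype. The authors deposited an intensity (signal) per probe set on a linear scale. The submitters' processing notes name MAS5, without its settings, and detection calls were not used here. Both arrays had a 2% trimmed mean of 150.0, and this scaling was kept. Of 22626 probe sets that are not controls, the platform annotation, of older date, paired 20380 with 1 gene symbol, 691 with more than 1 and 1555 with no symbol, and 20351 of the first matched the GRCm38.p6 gene table by Entrez identifier. Floors, brightest probe sets and log2 ratios were computed with Python 3.11.15, pandas 2.3.3 and statsmodels 0.14.6, and checked on simulated data. The number of arrays limits the precision. Neither p-values nor standard errors could be had, and calls use a threshold of 2-fold. Where 1 array was at the floor, the fold is a bound.

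Members and lists were chosen with earlier results of these data known. Named genes were the members, every other ADAM gene, genes of the ADAM3 processing, counterpart, gamete binding, regulator and substrate lists that were at least 2-fold off or among the farthest from 0, genes within 3 places of Adam2, Adam3, Adam5 or Adam9 among protein-coding genes, and the 3 genes nearest in log2 ratio to each sperm ADAM. Other list and marker genes, all markers at least 2-fold off among them, were named after their values were seen. Alternatives were scaling to the array median or to 45 bacterial and phage spike-in probe sets, quantile normalization, loess (span 0.3), a floor at the 25th or the 60th percentile, a pseudocount of 10 without a floor, the mean over probe sets, only probe sets with no suffix for several transcripts, no signal filter, thresholds of 1.5-fold and 3-fold, and each sperm ADAM left out. A value was taken as moved when it changed by more than 0.21, the probe set SD.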

Additional observations from a re-analysis of the deposited data

How the results depend on the processing

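The lower level of the sperm surface ADAMs kept its direction under all alternatives tried, and 2 or 3 members were at least 2-fold lower under each of them, 2 where the probe set of Adam5 was left out. The median of the sperm surface ADAMs, reported as -3.43, was -3.78 with spike-in scaling, -4.28 and -2.93 with floors at the 25th and 60th percentiles, and -3.18 without probe sets that can bind several transcripts. It was -4.00 without Adam2, -3.75 without Adam3 and -3.18 without Adam5. The median of the widely expressed ADAMs, reported as 0.07, was -0.27 with spike-in scaling. The difference between the groups, a bound reported as -3.51, was -4.38 and -3.03 with the same lower and higher floor, and -3.28 without probe sets that can bind several transcripts. Of all compared genes, 285 as reported were at least 2-fold lower, against 524 with spike-in scaling and 152 with the higher floor. Thresholds of 1.5-fold and 3-fold gave 624 and 121 lower genes. With the lower floor, 75.3% of the genes past 2-fold were lower (402 lower and 132 higher), against 91.1% as reported. Over 185 named or listed genes, 257 of 1739 alternative values moved by more than the probe set SD, and 0 genes that were at least 2-fold off turned sign. Spike-in scaling shifts every gene alike by 0.35, more than that SD, and leaving out the signal filter changes no value of a compared gene. The count was thus in part fixed in advance and is no measure of how stable the values are. No paired analysis was possible because each genotype had 1 array. Signals near the floor limit how low Adam3, Adam5, Adam18 and Adam1b can be read.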

Other observations

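The ADAMTS genes, secreted relatives of the ADAMs that cut matrix proteins, lay on the side of the somatic markers. Of 9 read 5 were compared, with 0 at least 2-fold lower and 0 higher, where 3.52% of all compared genes were lower and 0.346% higher. The median log2 ratio of the 5 was 0.38, with 4 above the median of all genes. Adamts5, which cuts aggrecan, had 152.7 on the UBR2-/- array and 115.6 on the wild type array (0.40), Adamts10 had 89.5 on UBR2-/- against 64.3 on wild type (0.48) and Adamts15 had 37.7 on UBR2-/- against 38.8 on wild type (-0.04).

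Integrins are known partners of ADAM disintegrin domains. Of 24 genes with integrin symbols 11 were compared, with a median of 0.22. Of the 11, 1 was at least 2-fold lower and 0 higher, where 3.52% of all compared genes were lower and 0.346% higher. Itga6, Itgb1 and Itga9 had 0.32, 0.32 and 0.06. Itgae had 11.8 on the UBR2-/- array, below the floor, against 55.6 on the wild type array and was at least 2.25-fold lower, having passed the signal filter only through the wild type array. Itgb3bp and Itgbl1, both at -0.52, carry integrin symbols and are not integrin subunits.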
